A study of Cloeon viridulum with 15 samples.

Results

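Unigenes annotated as proteins of the sperm tail and of the axoneme, the microtubule core of cilia and flagella, were followed through the life cycle of the mayfly Cloeon viridulum. A unigene is a transcript sequence assembled from the reads without a genome, so it has no chromosome position. Members were the unigenes whose best protein hit was an animal protein with a matching name: axonemal, tektin, radial spoke, sperm, flagellar, ciliary, dynein heavy or intermediate chain, intraflagellar transport or outer dense fibre. Names with spermidine, spermine or cytoplasmic dynein were not taken. Of 91881 unigenes, 324 carried such a name, 249 of them with a protist or fungal best hit and 75 with an animal one. With 1 of the 75 left out by the rule, 74 members remained, 62 with an arthropod and 12 with another animal as best hit. Whole bodies were sequenced at 4 stages: young larva, mature larva, subimago (the winged stage that moults once more) and imago (the reproductive adult). Young larvae came from the field and later stages were reared from them indoors at 22 °C, in a cycle of 16 h light and 8 h dark, without any treatment. Each stage had 3 libraries, made from pools of 10 young larvae of unstated sex, or of 3 males with 3 females at the later stages. Another 3 libraries held a mixture of 11 animals, 5 young larvae and 2 of each later stage, so 15 libraries were fitted. Testis and ovary were thus read together in every later library, and whether a level differed because fewer cells carried a transcript or because each cell held less of it cannot be told apart.

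An axoneme is a ring of paired microtubules around a central pair. Dynein arms, large motor complexes of heavy, intermediate and light chains, slide the pairs past each other and make the tail beat, and radial spokes carry signals from the centre to the arms. Tektins are filament proteins within the paired microtubules, and outer dense fibre proteins are known from the accessory fibres of vertebrate sperm tails. Intraflagellar transport (IFT) carries building material along growing cilia, outward with complex B and kinesin motors and back with complex A and cytoplasmic dynein. In Drosophila the sperm tail is built without this transport, and the sensory neurons are the other cells with axonemes.

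Dynein heavy chains made up 38 of the 74 members, and 13 were intraflagellar transport proteins. The others were 7 intermediate and other dynein parts, 5 further cilium, flagellum or axoneme proteins, 4 outer dense fibre proteins, 3 spermatogenesis-associated proteins, 2 sperm-associated antigens, 1 radial spoke protein and 1 tektin. Names did not stand for separate genes, since 8 best-hit proteins were shared by several members. A single ciliary dynein heavy chain was the best hit of 5 members, which together span 9505 bp and held 343 reads in young larvae, 343 in mature larvae, 257 in subimagoes and 285 in imagoes. Such unigenes may be pieces of 1 gene or near copies, and the sharing of reads among them is unknown, which makes the value of any one heavy chain unigene uncertain. The label did not hold for all members: 6 were annotated as cytosolic or cytoplasmic dynein, which moves cargo in the cell body. The spermatogenesis-associated proteins 5, 5-like 1 and 20 and the sperm-associated antigen 7 carry sperm in their names and are not known as axoneme structure proteins.

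Of the 74 members, 39 passed the filter on low counts and were tested, and 35 did not pass. The 35 had 0 to 76 reads over the 12 stage libraries, with a median of 17 reads, and a median length of 584 bp against 1545 bp for the tested members. Among them were 27 of the 38 heavy chains, including each unigene annotated as axonemal heavy chain 2, 3, 6 or 7. Levels are given as RPKM, read counts divided by unigene length and by the TMM-scaled library size, which allows comparison between unigenes. Tested members had a median of 0.608 RPKM over the 12 stage libraries, against 1.62 RPKM for all 34131 tested unigenes. Of the 39, 20 lay under 1 RPKM and 6 over 10 RPKM. The libraries held 36550269 to 74837923 reads.

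Mature larva replicate 1 stood apart from the other mature larvae in 8 tested members. Their reads lay almost wholly in the 3 young larva libraries and mature larva replicate 1, which held 99.5% or more of their summed stage level, while the next tested member had 85.1%. They were an intraflagellar transport protein 122-like unigene (13_Contig_37487, 12141 bp, longer than a protein of this name needs), intraflagellar transport proteins 80 (13_Contig_64307), 80-like (13_Contig_92853) and 52 (13_Contig_89636), a dynein heavy chain (13_Contig_56197), the ciliary dynein intermediate chain 2 (13_Contig_67933), an axonemal 84 kDa protein (13_Contig_49845) and a flagellar calcium-binding protein (13_Contig_91599). Whether the 122-like unigene joins several transcripts was not tested. The 8 members, called young larva-bound below, were set apart after their values were seen. The 122-like unigene had 14956, 3724 and 13035 reads in the young larvae, 8632, 6 and 22 in the mature larvae, 4, 4 and 10 in the subimagoes and 3, 1 and 14 in the imagoes. All 3 young larva libraries and 1 mature larva library were thus high, and the other 8 stage libraries were near 0. The intermediate chain 2 had 1661, 391 and 1276 reads in the young larvae, 1002, 2 and 1 in the mature larvae, 1, 1 and 3 in the subimagoes and 1, 0 and 2 in the imagoes. The same libraries were high in it. Protein 80 had 1568, 280 and 985 reads in the young larvae, 866, 0 and 3 in the mature larvae, 1, 1 and 2 in the subimagoes and 0, 0 and 3 in the imagoes. The axonemal 84 kDa protein had 1077, 497 and 519 reads in the young larvae, 600, 4 and 1 in the mature larvae, 0, 0 and 2 in the subimagoes and 0, 0 and 1 in the imagoes. The calcium-binding protein, known from the flagella of trypanosomes, had 36, 14 and 28 reads in the young larvae, 12, 0 and 0 in the mature larvae, 0, 0 and 0 in the subimagoes and 0, 0 and 0 in the imagoes. Replicate 2 was the lowest young larva library in each of these, and mature larva replicates 2 and 3 were near 0.

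Of the 8 young larva-bound members, 6 had a best hit in an animal other than an arthropod, and of the 7 tested members with such a hit only the axonemal dynein heavy chain 10 was not bound in this way. Their summed level was 16.3 to 98.4 RPKM in the young larvae and 30.3 RPKM in mature larva replicate 1. It was 0.0804 and 0.126 RPKM in the other mature larvae and at most 0.114 RPKM in every subimago and imago library. The 249 unigenes with the same name words and a protist or fungal best hit summed to 38.0 to 209 RPKM in the young larvae and 62.4 RPKM in mature larva replicate 1, against 1.95 to 3.10 RPKM in every other stage library. Of the 42 such unigenes tested, 29 had at least 98% of their level in those 4 libraries. The part of such unigenes in the levels of the young larva-bound members was not tested, and the values of single ones are given as reads. Their fitted fold changes, which rest on few or no reads in later stages, enter the medians and the plot of fold changes only. The other 66 members summed to 177 to 205 RPKM in the young larvae, 222 to 376 RPKM in the mature larvae, 238 to 268 RPKM in the subimagoes and 295 to 300.0 RPKM in the imagoes.

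**Figure D1:**
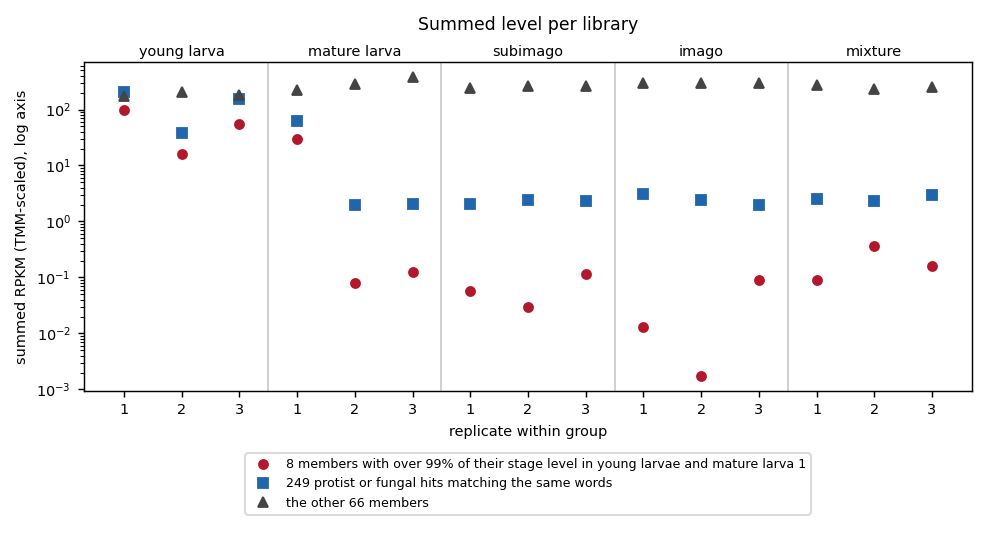
Summed level (RPKM after TMM scaling, log axis) of the 8 young larva-bound members (circles), of 249 unigenes with the same name words and a protist or fungal best hit (squares) and of the other 66 members (triangles) in each of the 15 libraries. Circles and squares are high in the 3 young larva libraries and mature larva replicate 1 and low elsewhere, while the triangles stay between 177 and 376 RPKM.

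Changes were tested with edgeR's quasi-likelihood test, with Benjamini-Hochberg adjustment over all 34131 tested unigenes, and those with an adjusted p under 0.05 were called. Log2 fold changes are given ± SE. Each stage had 3 libraries, and p-values rest on the spread between pools of animals.

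Between young and mature larva, the dynein beta chain, axonemal heavy chain 10, the radial spoke protein and the intraflagellar transport protein 140-like unigene were higher in mature larvae. So were 3 sperm-named proteins, while the cytoplasmic heavy chain (13_Contig_4814) and tektin-3 were lower. Of the falls called here, only that of the cytoplasmic heavy chain was called in every one of 19 alternatives. In mature larvae over young larvae 9 of 39 tested members rose and 4 fell. That is 23.1% and 10.3%, against 25.4% and 9.72% of all tested unigenes, so both shares were near the background. None of the 8 young larva-bound members was called here with edgeR, nor passed an unadjusted p under 0.05, with 0 higher and 0 lower, but without mature larva replicate 1 the counts over all members were 10 higher and 10 lower. Scaling moved the split: 5 rose and 7 fell with library totals, 8 and 6 with RLE scaling, 8 and 7 with DESeq2, and 8 and 7 with TMM on arthropod-hit unigenes. The median log2 fold change was -0.32 with the young larva-bound members and 0.27 without them, against -0.05 over all tested unigenes.

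Between mature larva and subimago, 2 outer dense fibre proteins (3 and 3B) and the cytoplasmic heavy chain were lower in subimagoes. So were the radial spoke protein and an axonemal 84 kDa protein, while heavy chain 10 and 3 sperm-named proteins were higher. Of the 14 changes called here, only those of outer dense fiber protein 3 and the cytoplasmic heavy chain were called in every one of 19 alternatives. In subimagoes over mature larvae 4 members rose and 10 fell, which is 10.3% and 25.6%, against 8.98% and 14.2% of all tested unigenes. Of the 10 that fell, 4 were young larva-bound, and without those 8 members 6 of 31 fell (19.4%). With 1 library left out, the count of higher members ran from 0 to 4 and the count of lower members from 2 to 10. Without mature larva replicate 1 the counts were 0 higher and 3 lower, against 6 and 15 at an unadjusted p under 0.05 with all libraries and 6 and 12 with DESeq2. With library totals 6 rose and 7 fell, and with TMM on arthropod-hit unigenes 2 rose and 11 fell.

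Between subimago and imago, 1 member rose and 1 fell. In imagoes over subimagoes these were the intraflagellar transport protein 140-like unigene, which rose, and the dynein beta chain, which fell. That is 2.56% each way, against 6.73% higher and 9.26% lower of all tested unigenes. At an unadjusted p under 0.05, 5 members were higher and 4 lower. RLE scaling gave 4 higher and 1 lower, TMM on arthropod-hit unigenes 1 and 3, and DESeq2 called 6 higher and 1 lower.

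Across both moults, from mature larva to imago with the same numbers of males and females in each pool, falls were the more frequent change. In imagoes over mature larvae 4 members rose and 16 fell, which is 10.3% and 41%, against 16.5% and 27% of all tested unigenes. Without the young larva-bound members 4 of 31 rose and 11 fell (35.5%). The median log2 fold change was -1.26 with them and -0.69 without them, against -0.62 over all tested unigenes. With 1 library left out, 7 to 16 members fell, and without mature larva replicate 1 the count was 9. With library totals 7 rose and 12 fell. The comparisons share libraries, so a change in one is not independent of the next. Of the 49 changes called in members over the 4 comparisons, 18 were called in every one of 19 alternatives.

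**Figure D2:**
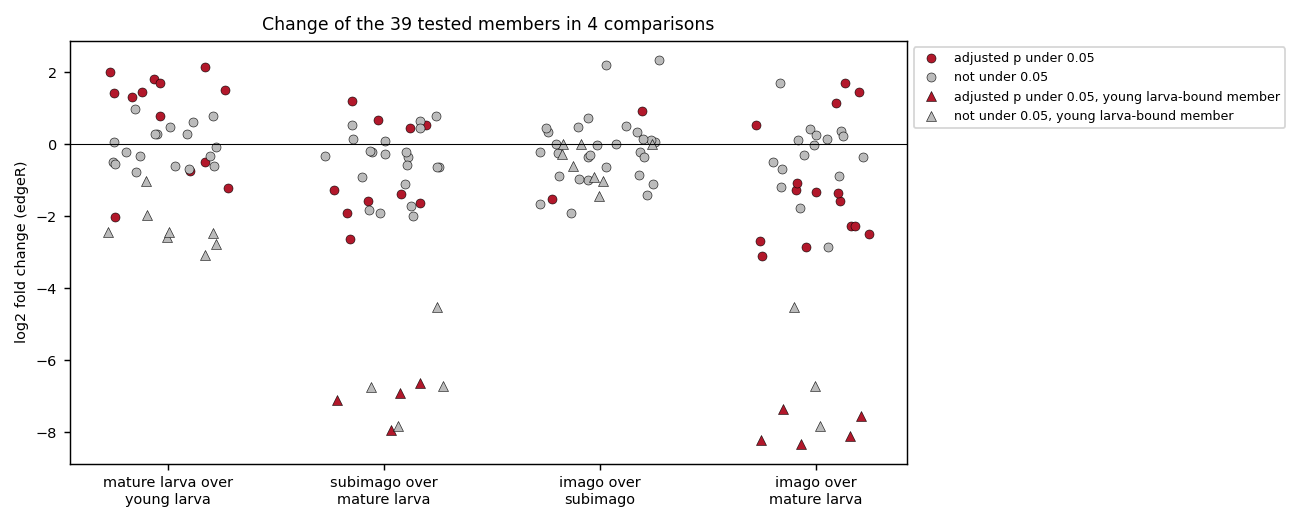
Log2 fold change (edgeR) of the 39 tested members in 4 comparisons between stages, later stage over earlier; red marks an adjusted p under 0.05, and triangles mark the 8 young larva-bound members. In imago over mature larva 16 members lie below 0 in red and 4 above, and in imago over subimago 1 member is red on each side. The triangles near the bottom rest on few or no reads in the later stage.

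Counted by highest stage, 22 of 39 tested members had their highest mean in young larvae, 6 in mature larvae, 5 in subimagoes and 6 in imagoes. The 22 are 56.4%, against 43.1% of all tested unigenes, and include the 8 young larva-bound members, which were set apart by their young larva level. Without those 8, it was 14 of 31 (45.2%), near the share of all tested unigenes.

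**Figure D3:**
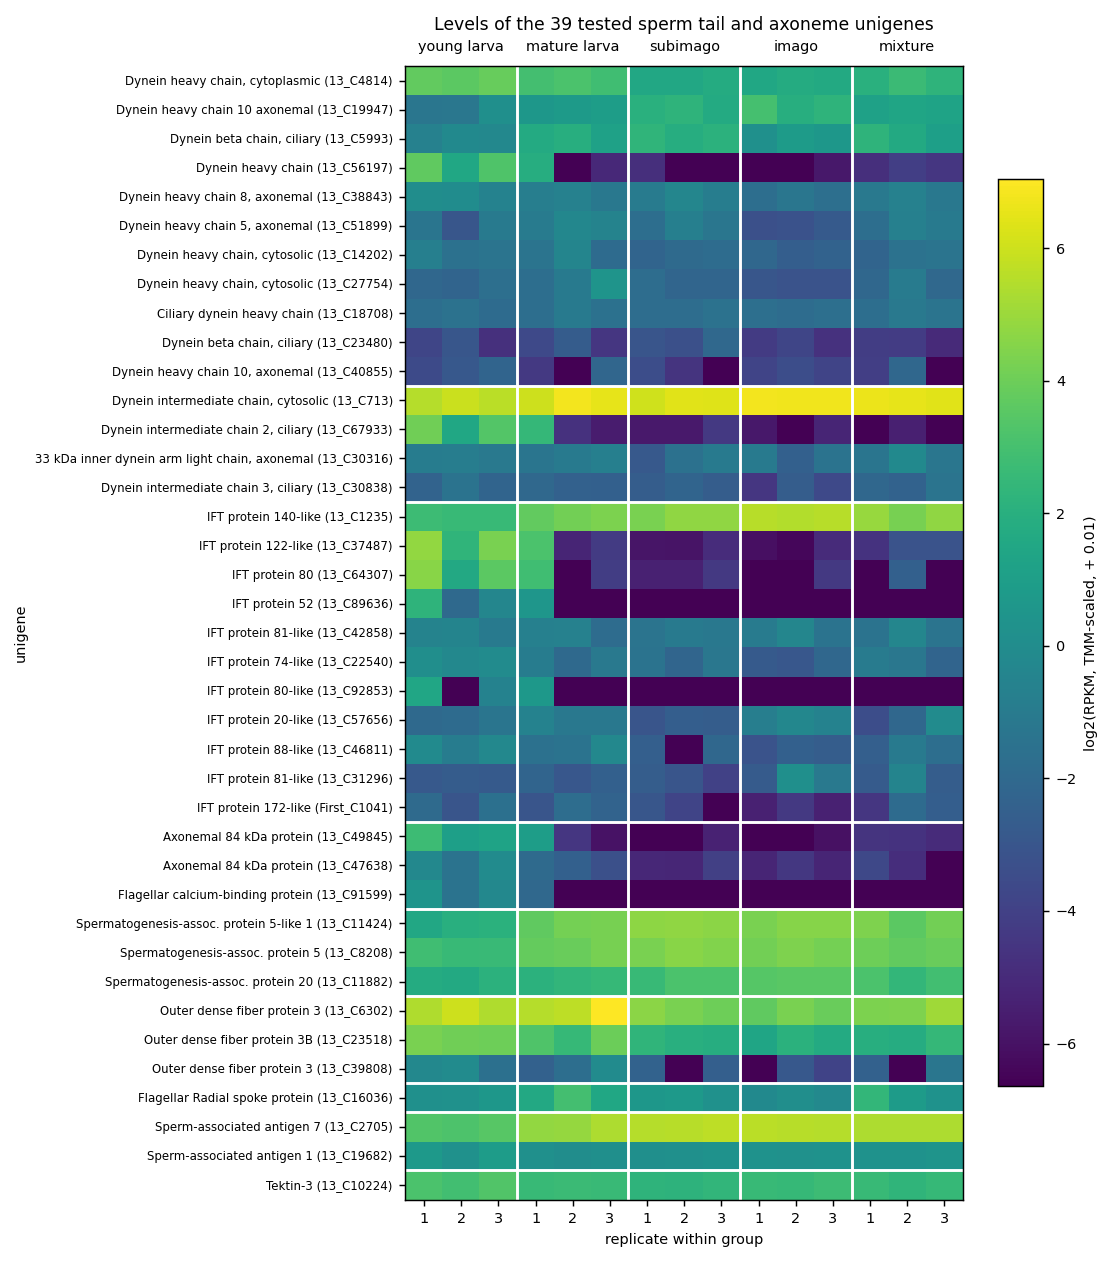
Level of the 39 tested members (rows, grouped by role) in the 15 libraries (columns), as log2 of RPKM after TMM scaling plus 0.01; IFT is intraflagellar transport. Dark cells are at or near 0 reads. The cytosolic dynein intermediate chain (13_Contig_713), outer dense fiber protein 3 (13_Contig_6302) and sperm-associated antigen 7 (13_Contig_2705) are the brightest rows.

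Axonemal dynein heavy chains differed in the direction of their changes. The longest of them, a dynein beta chain (13_Contig_5993, 10926 bp), known in sea urchins as a motor of the outer arm, was higher in mature larvae and subimagoes than in the other stages. It had 0.641, 0.897 and 0.830 RPKM in the young larvae, 3.33, 3.87 and 2.26 RPKM in the mature larvae, 4.90, 3.65 and 4.39 RPKM in the subimagoes and 1.17, 1.78 and 1.52 RPKM in the imagoes. All mature larva libraries lay above all young larva libraries, and all imago libraries lay below all subimago and mature larva libraries. It rose in mature larvae over young larvae (log2 fold change 2.00 ± 0.30, edgeR adjusted p = 0.000179) and fell in imagoes over subimagoes (log2 fold change -1.53 ± 0.30, edgeR adjusted p = 0.00422). Both calls stood in all 19 alternatives. It also fell in imagoes over mature larvae (log2 fold change -1.08 ± 0.29, edgeR adjusted p = 0.0123), a call that was lost without imago replicate 1 (adjusted p = 0.0621), as well as with library totals as scaling (adjusted p = 0.142).

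The axonemal dynein heavy chain 10 (13_Contig_19947, 2074 bp), an inner arm motor in vertebrates, had its highest mean in imagoes. Its best hit was a liver fluke protein. It had 0.405, 0.417 and 1.11 RPKM in the young larvae, 1.48, 1.76 and 1.98 RPKM in the mature larvae, 4.07, 4.74 and 3.30 RPKM in the subimagoes and 8.15, 3.88 and 4.82 RPKM in the imagoes. Imago replicate 1 was the highest library, subimago and imago libraries overlapped, and neither overlapped the larvae. It rose in imagoes over mature larvae (log2 fold change 1.69 ± 0.39, edgeR adjusted p = 0.00591) in every alternative. The rise in mature larvae over young larvae (log2 fold change 1.43 ± 0.39, edgeR adjusted p = 0.0130) was lost without young larva replicate 1 (adjusted p = 0.0571), as well as with library totals as scaling (adjusted p = 0.124). The rise in subimagoes over mature larvae (log2 fold change 1.21 ± 0.39, edgeR adjusted p = 0.0433) was lost without mature larva replicate 1, 2 or 3, subimago replicate 1, 2 or 3 or imago replicate 2 or 3 (adjusted p from 0.0503 to 0.146), as well as with TMM on arthropod-hit unigenes, no filter on low counts or the mixture left out. Another heavy chain 10 unigene (13_Contig_40855), with an arthropod hit, had 64 reads over the 12 stage libraries and was not called in any comparison.

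Axonemal heavy chain 5 (13_Contig_51899, 419 bp), an outer arm motor in vertebrates, was lowest in imagoes. It had 0.0911, 0.101 and 0.139 RPKM in the imagoes, against 0.503, 0.794 and 0.676 RPKM in the mature larvae, a fall in every alternative (log2 fold change -2.49 ± 0.61, edgeR adjusted p = 0.00730) that rests on 91 reads over the 12 stage libraries. Young larvae, at 0.390, 0.117 and 0.476 RPKM, lay below the mature larvae, and subimagoes, at 0.301, 0.581 and 0.408 RPKM, overlapped them. Axonemal heavy chain 8 (13_Contig_38843) and the longest ciliary heavy chain of the shared protein (13_Contig_18708, 5900 bp) were not called in any comparison, with means of 0.597 and 0.318 RPKM over the stages.

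The heavy chains annotated as cytoplasmic or cytosolic were lower in imagoes than in mature larvae in all 3 unigenes tested. The cytoplasmic heavy chain (13_Contig_4814, 14433 bp), the most abundant heavy chain, had 13.3, 12.2 and 14.4 RPKM in the young larvae, 7.74, 9.11 and 7.26 RPKM in the mature larvae, 2.98, 2.96 and 3.35 RPKM in the subimagoes and 2.79, 3.46 and 3.17 RPKM in the imagoes. Young larvae lay above mature larvae and both lay above the winged stages, which overlapped. It fell in mature larvae over young larvae (log2 fold change -0.73 ± 0.15, edgeR adjusted p = 0.00240) and in subimagoes over mature larvae (log2 fold change -1.38 ± 0.16, edgeR adjusted p = 0.000617), both in every alternative. A cytosolic heavy chain (13_Contig_27754) had 0.118, 0.104 and 0.103 RPKM in the imagoes, against 0.300, 0.478 and 1.33 RPKM in the mature larvae. All imago libraries were the lower, and the fall (log2 fold change -2.68 ± 0.53, edgeR adjusted p = 0.00250) was called in every alternative. Its rise in mature larvae over young larvae (log2 fold change 1.49 ± 0.51, edgeR adjusted p = 0.0368) came with overlapping libraries, mature larva replicate 3 being the highest, and was lost without young larva replicate 1, 2 or 3, mature larva replicate 2 or 3 or subimago replicate 3 (adjusted p from 0.0514 to 0.272), as well as with RLE scaling, library totals as scaling, TMM on arthropod-hit unigenes, no filter on low counts, DESeq2 or the mixture left out. Its fall in subimagoes over mature larvae (log2 fold change -1.57 ± 0.51, edgeR adjusted p = 0.0443) was lost with 10 of the 12 libraries left out in turn, from every stage (adjusted p from 0.0580 to 0.205), as well as with library totals as scaling, no filter on low counts or the mixture left out. Another cytosolic heavy chain (13_Contig_14202) fell in imagoes over mature larvae (log2 fold change -1.26 ± 0.40, edgeR adjusted p = 0.0254), a call that was lost without mature larva replicate 2 or imago replicate 1, 2 or 3 (adjusted p from 0.0566 to 0.114), as well as with library totals as scaling or the mixture left out (adjusted p up to 0.138).

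Among the other dynein parts, the intermediate chains tie the motors to their cargo or to the microtubule. The cytosolic intermediate chain (13_Contig_713) was the member with the highest mean level, 82.0 RPKM over the stages. It had 45.6, 62.5 and 49.4 RPKM in the young larvae, 62.8, 112 and 94.1 RPKM in the mature larvae, 67.5, 85.4 and 82.2 RPKM in the subimagoes and 110.3, 107 and 106 RPKM in the imagoes. Mature larva replicate 1 was close to the highest young larva library, and imagoes lay above subimagoes. Mature larvae were above young larvae (log2 fold change 0.77 ± 0.19, edgeR adjusted p = 0.00597), but this was not called with library totals in place of TMM, at adjusted p = 0.557. The 33 kDa inner dynein arm light chain (13_Contig_30316), a part of inner arms, had 0.532, 0.540 and 0.451 RPKM in the young larvae, 0.385, 0.482 and 0.586 RPKM in the mature larvae, 0.131, 0.336 and 0.472 RPKM in the subimagoes and 0.474, 0.175 and 0.361 RPKM in the imagoes, and was not called in any comparison. The libraries of its stages overlapped. The ciliary intermediate chain 3 (13_Contig_30838) was not called either, with 119 reads over the stages.

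Intraflagellar transport was led by 1 unigene, the protein 140-like one (13_Contig_1235, 13888 bp), a part of complex A. The unigene is longer than a protein of this name needs, and whether it joins several transcripts was not tested. It had 6.68, 6.04 and 5.92 RPKM in the young larvae, 13.2, 17.2 and 20.5 RPKM in the mature larvae, 19.2, 27.5 and 27.4 RPKM in the subimagoes and 48.2, 43.5 and 48.2 RPKM in the imagoes. Levels were higher at each later stage, with overlap only between mature larvae and subimagoes. It rose in mature larvae over young larvae (log2 fold change 1.45 ± 0.21, edgeR adjusted p = 0.000106) and in imagoes over mature larvae (log2 fold change 1.46 ± 0.21, edgeR adjusted p = 0.000407) in every alternative. The rise in imagoes over subimagoes (log2 fold change 0.92 ± 0.20, edgeR adjusted p = 0.00916) was lost without subimago replicate 1 (adjusted p = 0.0503). The other 6 intraflagellar transport members that were tested and not young larva-bound lay between 0.128 and 0.527 RPKM over the stages. Their called changes were all falls.

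Of those 6, all parts of complex B, the IFT74-like and IFT172-like unigenes changed. The IFT74-like unigene (13_Contig_22540) had 1.09, 0.831 and 0.977 RPKM in the young larvae, 0.523, 0.242 and 0.446 RPKM in the mature larvae, 0.367, 0.207 and 0.415 RPKM in the subimagoes and 0.139, 0.123 and 0.226 RPKM in the imagoes. The mature larvae lay below the young larvae and above the imagoes. Its fall in mature larvae over young larvae (log2 fold change -1.22 ± 0.44, edgeR adjusted p = 0.0483) was lost with 11 of the 12 libraries left out in turn, from every stage (adjusted p from 0.0622 to 0.163), as well as with no filter on low counts (adjusted p = 0.213), and its fall in imagoes over mature larvae (log2 fold change -1.31 ± 0.47, edgeR adjusted p = 0.0393) was lost with 10 of the 12 libraries left out in turn, from every stage (adjusted p from 0.0503 to 0.193), as well as with RLE scaling, library totals as scaling, no filter on low counts, DESeq2 or the mixture left out. The IFT172-like unigene (First_Contig1041) had 2, 5 and 2 reads in the imagoes, against 25, 24 and 23 in the mature larvae. All imago libraries were the lower (log2 fold change -3.12 ± 1.00, edgeR adjusted p = 0.0258), and the call was lost without mature larva replicate 2 or imago replicate 1 or 3 (adjusted p from 0.0663 to 0.0985), as well as with library totals as scaling (adjusted p = 0.0539). The remaining 4, annotated as IFT81-like (13_Contig_42858 and 13_Contig_31296), IFT88-like (13_Contig_46811) and IFT20-like (13_Contig_57656), were not called in any comparison. An IFT46-like unigene (13_Contig_31676) and another IFT172-like one (13_Contig_51881) had 72 and 29 reads over the stages and were not tested.

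Of 4 outer dense fibre members, 2 were called, both lower in imagoes than in mature larvae. Outer dense fiber protein 3 (13_Contig_6302, 1248 bp) had 42.1, 64.0 and 43.2 RPKM in the young larvae, 46.6, 51.2 and 131 RPKM in the mature larvae, 24.9, 19.1 and 16.4 RPKM in the subimagoes and 12.9, 19.6 and 15.3 RPKM in the imagoes. Mature larva replicate 3 was the highest, young and mature larvae overlapped, and every larval library lay above every winged one. It fell in subimagoes over mature larvae (log2 fold change -1.92 ± 0.39, edgeR adjusted p = 0.00901) and in imagoes over mature larvae (log2 fold change -2.26 ± 0.39, edgeR adjusted p = 0.00114), both in every alternative. The protein 3B unigene (13_Contig_23518) had 19.7, 17.1 and 16.3 RPKM in the young larvae, 9.69, 5.71 and 15.4 RPKM in the mature larvae, 5.01, 4.03 and 3.72 RPKM in the subimagoes and 2.65, 4.32 and 3.30 RPKM in the imagoes. Mature larvae lay below young larvae and above both winged stages. It fell in imagoes over mature larvae (log2 fold change -1.58 ± 0.34, edgeR adjusted p = 0.00373) in every alternative, and its fall in subimagoes over mature larvae (log2 fold change -1.27 ± 0.34, edgeR adjusted p = 0.0253) was lost without mature larva replicate 1 or 3 or subimago replicate 1, 2 or 3 (adjusted p from 0.0523 to 0.0982), as well as with library totals as scaling (adjusted p = 0.0780). A short protein 3 unigene (13_Contig_39808) with the same best hit as the first had 68 reads over the stages and was not called. The fourth, also annotated as protein 3 (13_Contig_39187), had 0, 0 and 0 reads in the young larvae, 0, 0 and 0 in the mature larvae, 0, 4 and 0 in the subimagoes and 0, 0 and 2 in the imagoes, and was not tested.

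The radial spoke protein (13_Contig_16036) was highest in mature larvae. It had 1.17, 1.20 and 1.50 RPKM in the young larvae, 3.04, 7.69 and 2.85 RPKM in the mature larvae, 1.53, 1.64 and 1.21 RPKM in the subimagoes and 0.892, 1.06 and 0.856 RPKM in the imagoes. Mature larva replicate 2 was the highest library, and the lowest mature larva library still lay above every library of the other stages. It fell in imagoes over mature larvae in every alternative (log2 fold change -2.27 ± 0.52, edgeR adjusted p = 0.00551). The rise in mature larvae over young larvae (log2 fold change 1.81 ± 0.51, edgeR adjusted p = 0.0153) was lost without young larva replicate 1 or mature larva replicate 2 (adjusted p from 0.0549 to 0.0985), as well as with library totals as scaling (adjusted p = 0.0953). Its fall in subimagoes over mature larvae (log2 fold change -1.63 ± 0.51, edgeR adjusted p = 0.0403) was lost with 11 of the 12 libraries left out in turn, from every stage (adjusted p from 0.0535 to 0.118), as well as with library totals as scaling.

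Tektin-3 (13_Contig_10224) was highest in young larvae. It had 8.84, 7.37 and 9.83 RPKM in the young larvae, 5.91, 6.38 and 6.28 RPKM in the mature larvae, 4.73, 4.62 and 5.07 RPKM in the subimagoes and 5.88, 5.66 and 6.68 RPKM in the imagoes. All young larva libraries were the highest and all subimago libraries the lowest. Its fall in mature larvae over young larvae (log2 fold change -0.49 ± 0.15, edgeR adjusted p = 0.0214) was lost with 8 of the 12 libraries left out in turn, from every stage (adjusted p from 0.0517 to 0.112), as well as with no filter on low counts (adjusted p = 0.0690), and it was not called in any other comparison. The axonemal 84 kDa protein with an arthropod hit (13_Contig_47638) had 82, 50 and 123 reads in the young larvae, 47, 12 and 9 in the mature larvae, 2, 2 and 4 in the subimagoes and 2, 4 and 2 in the imagoes. Reads were most frequent in the young larvae, which held with mature larva replicate 1 85.1% of its stage level. It fell in mature larvae over young larvae (log2 fold change -2.03 ± 0.70, edgeR adjusted p = 0.0388) and in subimagoes over mature larvae (log2 fold change -2.62 ± 0.80, edgeR adjusted p = 0.0369). The first call was lost with 9 of the 12 libraries left out in turn, from every stage (adjusted p from 0.0576 to 0.148), as well as with no filter on low counts (adjusted p = 0.0710), and the second was lost with 10 of the 12 libraries left out in turn, from every stage (adjusted p from 0.0513 to 0.139), as well as with no filter on low counts. Its fall in imagoes over mature larvae (log2 fold change -2.85 ± 0.80, edgeR adjusted p = 0.0143) was lost without mature larva replicate 1 or imago replicate 1 or 3 (adjusted p from 0.0525 to 0.0648).

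Of the 5 sperm-named members, 3 rose in mature larvae over young larvae, against 25.4% of all tested unigenes. Sperm-associated antigen 7 (13_Contig_2705) had 9.93, 9.29 and 11.2 RPKM in the young larvae, 28.4, 29.0 and 40.9 RPKM in the mature larvae, 45.4, 46.8 and 51.3 RPKM in the subimagoes and 49.8, 47.3 and 46.2 RPKM in the imagoes. The stages did not overlap up to the subimago, and the winged stages overlapped. It rose in mature larvae over young larvae in every alternative (log2 fold change 1.69 ± 0.14, edgeR adjusted p = 6.44e-07). The rise in subimagoes over mature larvae (log2 fold change 0.55 ± 0.13, edgeR adjusted p = 0.0192) was lost without mature larva replicate 1 or 2 or subimago replicate 2 or 3 (adjusted p from 0.0611 to 0.0854), as well as with no filter on low counts (adjusted p = 0.0603), and that in imagoes over mature larvae (log2 fold change 0.54 ± 0.13, edgeR adjusted p = 0.00743) was lost with TMM on arthropod-hit unigenes or no filter on low counts (adjusted p up to 0.0929). Sperm-associated antigen 1 (13_Contig_19682), which helps to assemble dynein arms in vertebrates, had 1.62, 1.20 and 1.87 RPKM in the young larvae, 1.17, 1.05 and 1.13 RPKM in the mature larvae, 1.14, 1.16 and 1.26 RPKM in the subimagoes and 1.25, 1.22 and 1.25 RPKM in the imagoes. It was not called in any comparison.

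The spermatogenesis-associated proteins 5 and 5-like 1 are AAA-family ATPases named for mouse testis. The 5-like 1 unigene (13_Contig_11424) had 12.8, 17.9 and 18.6 RPKM in the mature larvae, against 2.99, 3.90 and 4.27 RPKM in the young larvae, with 25.8, 27.5 and 25.4 RPKM in the subimagoes and 19.8, 23.2 and 23.2 RPKM in the imagoes. Young larvae lay below all later stages. The protein 5 unigene (13_Contig_8208) had 14.0, 14.9 and 18.7 RPKM in the mature larvae, against 7.15, 5.94 and 6.16 RPKM in the young larvae, with 19.5, 23.9 and 22.1 RPKM in the subimagoes and 17.3, 20.8 and 17.8 RPKM in the imagoes. Both rose in mature larvae over young larvae in every alternative, protein 5-like 1 with log2 fold change 2.14 ± 0.22, edgeR adjusted p = 6.41e-06 and protein 5 with log2 fold change 1.31 ± 0.14, edgeR adjusted p = 1.11e-05. In subimagoes over mature larvae both were called, but not in every alternative. The call of 5-like 1 (log2 fold change 0.67 ± 0.21, edgeR adjusted p = 0.0407) was lost with 9 of the 12 libraries left out in turn, from every stage (adjusted p from 0.0558 to 0.164), as well as with no filter on low counts, and the call of protein 5 (log2 fold change 0.46 ± 0.14, edgeR adjusted p = 0.0376) was lost with 9 of the 12 libraries left out in turn, from every stage (adjusted p from 0.0501 to 0.160), as well as with TMM on arthropod-hit unigenes or no filter on low counts. Protein 20 (13_Contig_11882) had 10.6, 11.6 and 11.5 RPKM in the imagoes, against 4.34, 5.21 and 5.76 RPKM in the mature larvae, a rise in every alternative (log2 fold change 1.14 ± 0.24, edgeR adjusted p = 0.00374).

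**Figure D4:**
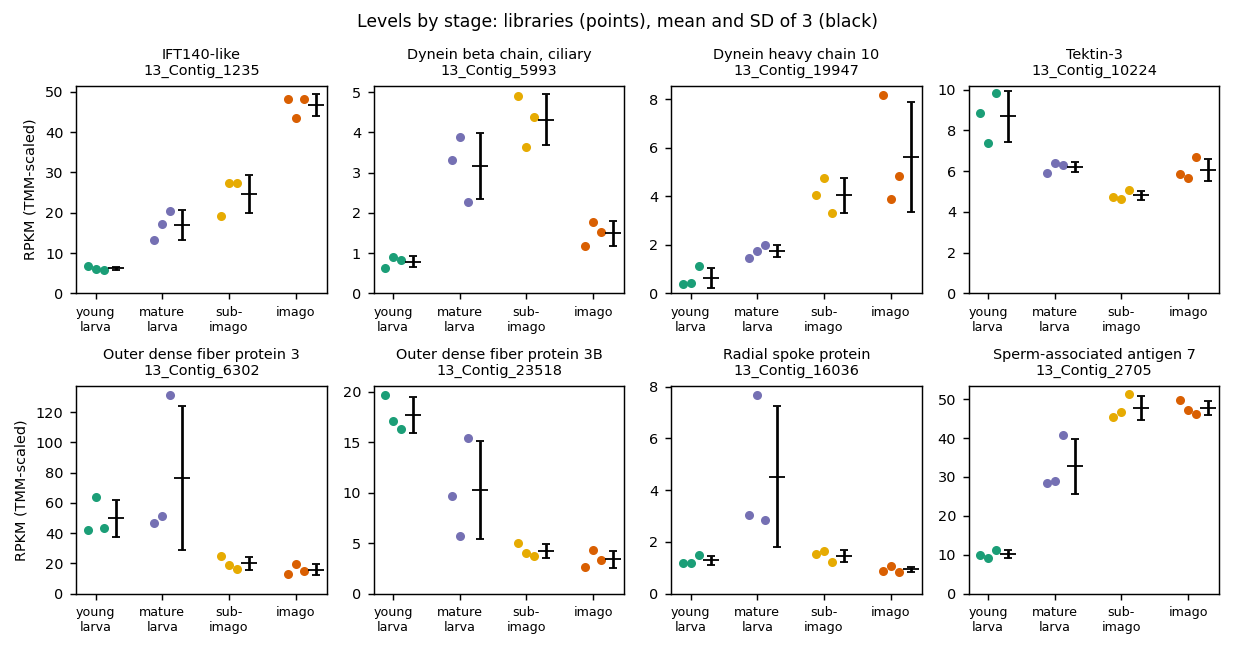
Level (RPKM after TMM scaling) of 8 members by stage; points are libraries, black bars the mean and SD of 3 libraries. The protein 140-like unigene and heavy chain 10 are highest in the imago, the beta chain and sperm-associated antigen 7 are low in the young larva, the 2 outer dense fibre proteins shown are lower in both winged stages than in the larvae, and the radial spoke protein has its highest point, 7.69 RPKM, in mature larva replicate 2.

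Further axoneme and cilium genes that the names above do not cover were taken as a list: tubulins and tubulin-modifying enzymes, dynein light chains, kinesin-2 motors, Bardet-Biedl proteins, dynein arm assembly factors and transition zone proteins. Of 41 such unigenes, 34 were tested. Among the 34 are leucine-rich repeat-containing protein 68 (13_Contig_6399) and EF-hand domain-containing protein D1 (13_Contig_11727). Both were matched by a part of their name only and belong to none of these classes. In mature larvae over young larvae 17 rose and none fell, against 25.4% higher and 9.72% lower of all tested unigenes, with 9 to 17 higher and 0 to 6 lower over the alternatives, and 9 higher and 2 lower with library totals. At an unadjusted p under 0.05, 18 were higher and 0 lower, DESeq2 called 13 higher and 1 lower, and without mature larva replicate 1 edgeR called 16 higher and 6 lower. Some unigenes of the list were far higher in the young larvae and mature larva replicate 1 than elsewhere, as the young larva-bound members were. A tubulin alpha-1 chain (13_Contig_22535) had 53579, 9554 and 34484 reads in the young larvae and 30348, 24 and 102 in the mature larvae. TTLL9 (First_Contig569), a leucine-rich repeat-containing protein 6 (13_Contig_88182) and a KIF3A unigene (13_Contig_89131) were likewise high in those libraries. The median log2 fold change was 0.81, against -0.05 over all tested unigenes. In subimagoes over mature larvae 4 rose and 7 fell, against 8.98% and 14.2% of all tested unigenes. In imagoes over subimagoes 4 rose and 1 fell, against 6.73% and 9.26%. In imagoes over mature larvae 8 rose and 10 fell, against 16.5% and 27%. Without mature larva replicate 1, subimagoes over mature larvae gave 0 higher and 3 lower, and imagoes over mature larvae 5 higher and 7 lower.

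The list holds motors and cargo carriers of intraflagellar transport. The kinesin-2 subunit KIF3B (13_Contig_4129), which drives outward transport, had 6.47, 6.57 and 6.02 RPKM in the young larvae, 17.3, 24.9 and 28.6 RPKM in the mature larvae, 32.2, 36.6 and 36.5 RPKM in the subimagoes and 50.9, 49.7 and 51.3 RPKM in the imagoes. No stage overlapped another, and it rose in mature larvae over young larvae (log2 fold change 1.89 ± 0.17, edgeR adjusted p = 1.73e-06) and in imagoes over mature larvae (log2 fold change 1.10 ± 0.17, edgeR adjusted p = 0.000552). Its partner KIF3A (First_Contig158) had 5.09, 4.89 and 4.59 RPKM in the young larvae, 12.8, 16.9 and 21.1 RPKM in the mature larvae, 18.5, 17.8 and 19.5 RPKM in the subimagoes and 7.46, 5.73 and 5.06 RPKM in the imagoes. It rose in mature larvae over young larvae (log2 fold change 1.80 ± 0.22, edgeR adjusted p = 3.47e-05) and fell in imagoes over subimagoes (log2 fold change -1.61 ± 0.22, edgeR adjusted p = 0.000511). Another KIF3A unigene (13_Contig_89131) was high in the libraries of the young larva-bound members, with 557, 75 and 173 reads in the young larvae, 320, 0 and 3 in the mature larvae, 2, 3 and 2 in the subimagoes and 1, 0 and 0 in the imagoes, and was not called in mature larvae over young larvae. The tetratricopeptide repeat proteins 26 and 30, parts of complex B, and 21B, a part of complex A, rose in mature larvae over young larvae in 4 of 5 unigenes, with log2 fold changes of 1.43 (13_Contig_20388), 2.68 (13_Contig_18586), 2.87 (13_Contig_19727) and 2.08 (13_Contig_14563), all with an edgeR adjusted p under 0.05. Of these, the call of 13_Contig_20388 was lost without young larva replicate 3 or mature larva replicate 2 (adjusted p from 0.0790 to 0.145), as well as with library totals as scaling (adjusted p = 0.126), and that of 13_Contig_18586 was lost without young larva replicate 1 or mature larva replicate 2 (adjusted p from 0.0605 to 0.0642). Of 5 Bardet-Biedl proteins, which carry cargo within cilia, proteins 2 (13_Contig_10715), 5 (13_Contig_9357) and 7 (13_Contig_50429) were not called in this comparison. Protein 4 (13_Contig_30432) rose (log2 fold change 1.68 ± 0.36, edgeR adjusted p = 0.00256), a call that was lost with library totals as scaling (adjusted p = 0.0553). Protein 1 (13_Contig_5946) rose (log2 fold change 0.37 ± 0.13, edgeR adjusted p = 0.0488), a call that was lost with 7 of the 12 libraries left out in turn, from every stage (adjusted p from 0.0521 to 0.115), as well as with RLE scaling, library totals as scaling, TMM on arthropod-hit unigenes, no filter on low counts, DESeq2 or the mixture left out (adjusted p up to 0.491).

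A pair of genes of this list, among others such as leucine-rich repeat-containing protein 56 (13_Contig_42742), had their highest levels in mature larvae. The EF-hand domain protein C2 (13_Contig_15192), found inside the paired microtubules of vertebrate axonemes, had 0.113, 0.0889 and 0.0988 RPKM in the young larvae, 2.06, 10.9 and 4.58 RPKM in the mature larvae, 0.407, 0.356 and 0.103 RPKM in the subimagoes and 0.0116, 0.192 and 0.387 RPKM in the imagoes. Every mature larva library was above every library of the other stages, and replicate 2 was the highest, as for the radial spoke protein. It rose in mature larvae over young larvae (log2 fold change 5.85 ± 1.20, edgeR adjusted p = 0.00210) and fell in imagoes over mature larvae (log2 fold change -4.88 ± 1.14, edgeR adjusted p = 0.00607). The tubulin polyglutamylase ttll6 (13_Contig_20318), which adds glutamate chains to tubulin, had 0, 0 and 0 reads in the young larvae, 122, 91 and 23 in the mature larvae, 2, 0 and 0 in the subimagoes and 2, 0 and 2 in the imagoes, with 72, 8 and 4 reads in the mixture libraries. Both were called in every alternative in these 2 comparisons, and both were named after their values were seen. A tubulin alpha chain (13_Contig_17603), by contrast, was highest in young larvae. It had 14.8, 11.7 and 17.2 RPKM in the young larvae, 9.11, 7.21 and 13.2 RPKM in the mature larvae, 1.31, 0.854 and 0.0363 RPKM in the subimagoes and 0.682, 0.270 and 0.296 RPKM in the imagoes, and fell in imagoes over mature larvae (log2 fold change -4.55 ± 0.85, edgeR adjusted p = 0.00179). TTLL5 (13_Contig_1278), of the same enzyme family as ttll6, had 12.3, 13.0 and 13.0 RPKM in the imagoes, against 2.43, 3.94 and 4.08 RPKM in the subimagoes (log2 fold change 1.87 ± 0.29, edgeR adjusted p = 0.00118).

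**Figure D5:**
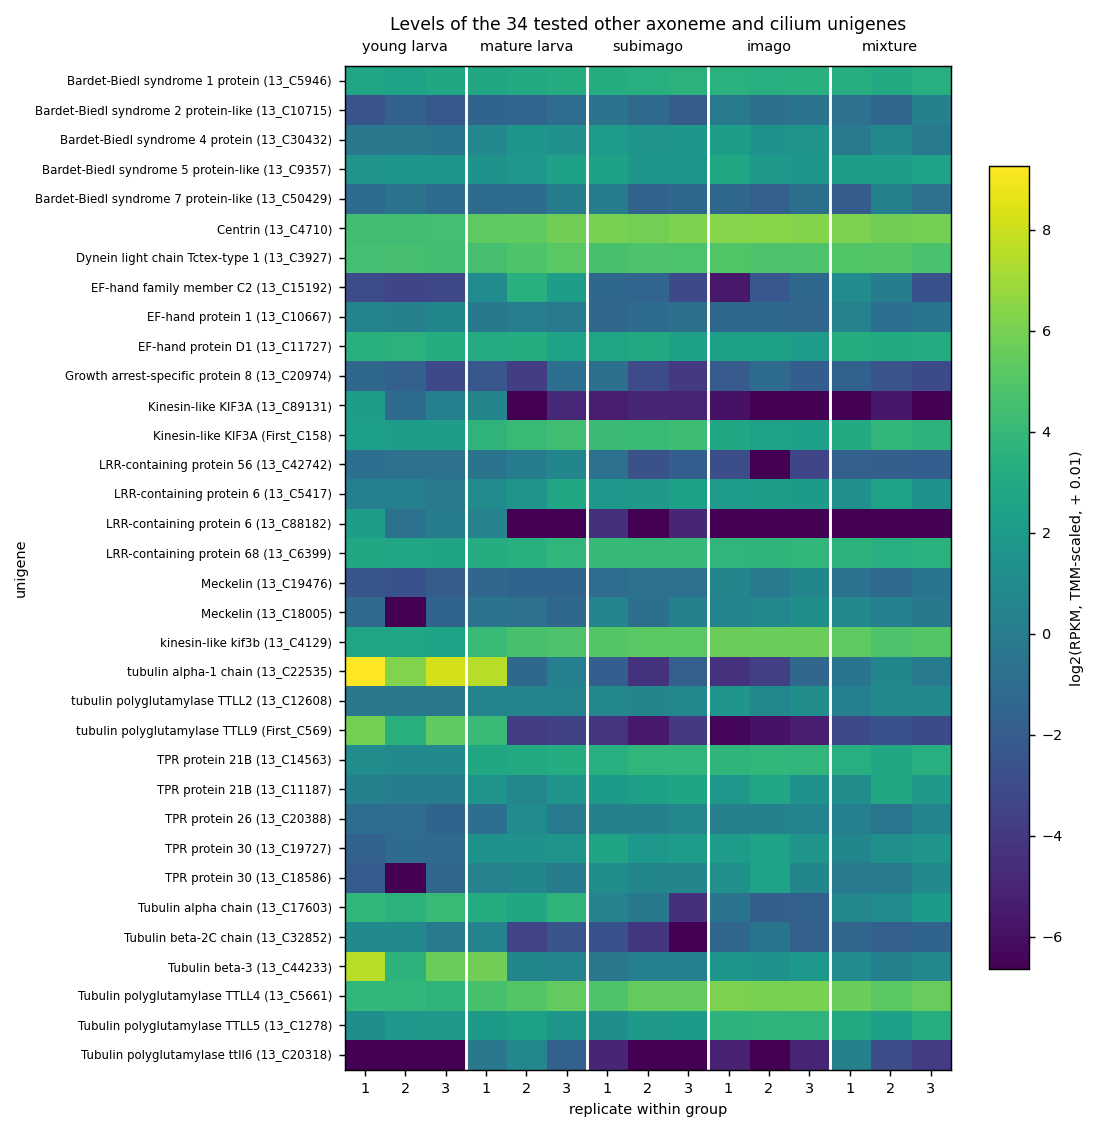
Level of the 34 tested unigenes of the further axoneme and cilium list (rows) in the 15 libraries (columns), as log2 of RPKM after TMM scaling plus 0.01; TPR is tetratricopeptide repeat and LRR leucine-rich repeat. The rows of EF-hand domain protein C2 (13_Contig_15192) and tubulin polyglutamylase ttll6 (13_Contig_20318) are brighter in mature larvae than in the other stages, and a tubulin alpha-1 chain (13_Contig_22535) and TTLL9 (First_Contig569) are bright in young larvae and mature larva replicate 1.

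Cytoplasmic dynein and dynactin, left out of the members by their names, made a list of 17 unigenes, 12 of them tested. In mature larvae over young larvae 7 rose and none fell, against 25.4% higher and 9.72% lower of all tested unigenes, and in imagoes over mature larvae 7 rose and 1 fell, against 16.5% and 27%. For the first of these, an unadjusted p under 0.05 gave 8 higher and 1 lower, DESeq2 5 higher and 1 lower, and library totals 3 higher and 1 lower. Some unigenes annotated as cytoplasmic dynein 2 heavy chain, the motor of backward intraflagellar transport, were almost without reads in young larvae. A unigene of 1260 bp (13_Contig_7328) had 767, 377 and 723 reads in the mature larvae, against 0, 2 and 0 in the young larvae, with 1066, 1737 and 1076 in the subimagoes and 1711, 1568 and 1790 in the imagoes. Another, of 353 bp (13_Contig_17972), had 183, 76 and 144 reads in the mature larvae, against 0, 0 and 1 in the young larvae. Other unigenes with this name were present in young larvae, among them 13_Contig_2381 with 1.92, 2.48 and 3.73 RPKM. They differed in direction. First_Contig858 had 34, 66 and 26 reads in the young larvae, against 3, 2 and 4 in the imagoes. By contrast, 13_Contig_14914 had 35, 67 and 44 reads in the young larvae, against 189, 294 and 111 in the imagoes.

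Lists of other cells and of the germ line were read beside the members, and their counts stand against 25.4% higher and 9.72% lower of all tested unigenes in mature larvae over young larvae, and 16.5% and 27% in imagoes over mature larvae. Of the meiosis and testis list, 5 of 6 unigenes were tested, and their summed level was 77.0 to 94.7 RPKM in the young larvae, 171 to 246 RPKM in the mature larvae, 231 to 252 RPKM in the subimagoes and 208 to 243 RPKM in the imagoes. The largest part came from a female sterile 1 homeotic unigene (13_Contig_2953) and a meiotic spindle orientation unigene (13_Contig_119722), matched by their names only. A female-specific doublesex isoform (13_Contig_8916), which is no testis marker, was matched likewise. The meiotic recombination protein SPO11 (13_Contig_19238), the defining meiosis gene of the list, lay between 0.159 and 0.566 RPKM in the stage means and was not called in any comparison. None of the 6 was named for protamine, boule or a synaptonemal protein. In mature larvae over young larvae 2 of the list rose and none fell, with 3 higher and 1 lower at an unadjusted p under 0.05, and in imagoes over mature larvae 1 rose and 1 fell. The sensory neuron list had 29 tested unigenes, mostly transient receptor potential channels, and summed to 75.4 to 90.4 RPKM in the young larvae, 77.3 to 103 RPKM in the mature larvae, 90.4 to 100.4 RPKM in the subimagoes and 87.4 to 99.5 RPKM in the imagoes. In mature larvae over young larvae 5 of the 29 rose and 9 fell, and in imagoes over mature larvae 1 rose and 11 fell, against 27% lower of all tested unigenes. The median log2 fold change in the latter was -0.89, against -0.62 over all tested unigenes. The near-level sum hides this, since futsch (13_Contig_4491) went from 6.89, 6.79 and 7.31 RPKM in the young larvae to 39.9, 37.0 and 34.5 RPKM in the imagoes. A painless-like channel (13_Contig_3726) went from 5.31, 4.78 and 5.40 RPKM to 22.2, 20.0 and 21.8 RPKM. Of the 29, 3 are inactive dipeptidyl peptidase 10 unigenes (13_Contig_1557, 13_Contig_7252 and 13_Contig_41500), matched by a part of their name only, and each of them is among the 11 that fell. The defining channel nompC (13_Contig_19939) had 1470, 216 and 2835 reads in the young larvae, 900, 10 and 17 in the mature larvae, 33, 62 and 23 in the subimagoes and 33, 41 and 64 in the imagoes, and no unigene of the list was named for the channel nanchung. Mature larva replicate 1 was again far above the other mature larvae in nompC. The ovary list, with 12 of 18 unigenes tested, summed to 53.5 to 64.8 RPKM in the young larvae, 349 to 587 RPKM in the mature larvae, 577 to 774 RPKM in the subimagoes and 1051 to 1153 RPKM in the imagoes. A large part of the sum was bicaudal C (13_Contig_854), with 138, 243 and 263 RPKM in the subimagoes and 603, 574 and 633 RPKM in the imagoes. In imagoes over subimagoes 3 of the ovary list rose and 1 fell, against 6.73% and 9.26% of all tested unigenes. It also holds a vitelline coat lysin (13_Contig_21914) and chorion peroxidases, taken by their names alone. Of the peroxidases, 13_Contig_8552 had 24.3, 30.6 and 25.9 RPKM in the young larvae and 0.537, 0.440 and 0.470 RPKM in the imagoes. Another, 13_Contig_16163, was highest in the imagoes. The neuron list, 17 unigenes, summed to 175 to 182 RPKM in the young larvae, 176 to 239.9 RPKM in the mature larvae, 187 to 219 RPKM in the subimagoes and 218 to 241 RPKM in the imagoes. In mature larvae over young larvae 7 of the ovary list rose and 2 fell, and 5 of the neuron list rose and 1 fell. In imagoes over mature larvae 4 of the ovary list rose and 3 fell, and 9 of the neuron list rose and 6 fell. The neuron list holds syntaxins 12, 16 and 18 (13_Contig_2790, 13_Contig_2726 and 13_Contig_3481), matched by a part of their name only. In each of these syntaxins all imago libraries lay above all mature larva libraries. Synapsin (13_Contig_2680) and synaptotagmin 1 (13_Contig_3859) lay lower in all imago libraries, and ELAV-like protein 4 (13_Contig_7669) lay higher. The part of these cells in the changes of the members was not tested.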

How the data were processed

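Whole-body RNA of Cloeon viridulum was sequenced in 15 libraries (TruSeq kit, HiSeq), with 3 libraries for each of 4 stages and for a mixture. Per the labels' protocols, low-quality and ribosomal reads were removed and unigenes were assembled from all clean reads with CLC Genomics Workbench and then CAP3. The submitters' processing notes name DESeq. The read mapper, its settings and the use of strand are not stated in the labels or notes, so near-identical unigenes could share reads. The authors deposited 1 table with raw read counts and RPKM values per unigene and library and the best protein hit of each unigene. The deposited RPKM values equalled count divided by length and library total, with a largest relative difference of 3.42e-07. No sequence and no genome were used.

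Counts were tested with edgeR 4.0.16 in R 4.3.3 (limma 3.58.1): TMM scaling, filterByExpr, 1 group term over 5 groups, 10 residual degrees of freedom, and robust quasi-likelihood tests adjusted by Benjamini-Hochberg over 34131 unigenes. The SE of a log2 fold change is its size divided by the square root of F. Levels (RPKM) were computed from the deposited counts, divided by length and TMM-scaled library size. The scripts were tested on simulated data. Pools of animals are the replicates, as the labels call them biological replicates. Libraries held 36550269 to 74837923 reads, and a count of 0 was taken to allow up to 3 reads. This floor covers counting error only, while the SE of a log2 fold change also rests on the spread between pools. Alternatives were RLE scaling, library totals, TMM on arthropod-hit unigenes, no filter, DESeq2 1.42.0, no mixture, replicate numbers as a block, and each of the 12 stage libraries left out in turn. The members, the 7 lists and the tests were chosen with earlier results of these data known. Members were named by a rule: in each role the 3 tested with the highest mean level, and in each comparison the 3 largest rises and falls among called members whose stages did not overlap. Others that the text names were chosen after their values were seen.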

Additional observations from a re-analysis of the deposited data

Results flagged for a closer look

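Of the 74 members, 27 had over 3 reads in each of the 3 mixture libraries, which enter the fit but none of the comparisons, so the 3 reads that a count of 0 allows were passed there. The summed level of the unigenes with the same name words and a protist or fungal best hit averaged 133.9 RPKM over the young larva libraries, in data outside the members, with no control samples to set it against.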

How the results depend on the processing

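Of 160 alternative counts of called members, 109 stayed within 1.5 times the count reported, and 51 did not. With library totals, mature larvae over young larvae gave 5 higher and 7 lower in place of 9 and 4, and imagoes over mature larvae 7 higher. With TMM on arthropod-hit unigenes, mature larvae over young larvae gave 7 lower, subimagoes over mature larvae 2 higher and imagoes over subimagoes 3 lower. Without the filter on low counts, mature larvae over young larvae gave 1 lower, and subimagoes over mature larvae 0 higher and 4 lower. DESeq2 gave 7 lower in mature larvae over young larvae, 6 higher in imagoes over subimagoes and 7 higher in imagoes over mature larvae. RLE scaling gave 4 higher and a fit without the mixture gave 3 higher in imagoes over subimagoes. Without the young larva-bound members, an alternative chosen after seeing the data, 6 were lower in subimagoes over mature larvae. The causes were not tested.

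With 1 library left out, mature larvae over young larvae gave 6 to 10 higher and 1 to 10 lower, and subimagoes over mature larvae 0 to 4 higher and 2 to 10 lower. Imagoes over subimagoes gave 0 to 2 higher and 1 to 2 lower, and imagoes over mature larvae 4 to 5 higher and 7 to 16 lower. With the replicate block, subimagoes over mature larvae gave 1 higher and 3 lower. The block also lost calls whose other losses are given above. In that comparison these include 13_Contig_19947, 13_Contig_27754, 13_Contig_16036, 13_Contig_47638, 13_Contig_11424 and 13_Contig_8208. Also lost were the rise of 13_Contig_27754 in mature larvae over young larvae and the fall of 13_Contig_22540 in imagoes over mature larvae. Deviations of libraries with the same number correlated between -0.302 and 0.552, and those with different numbers between -0.614 and 0.424. The labels do not say that a number is shared between stages. Whether the numbers pair the samples cannot be told from these correlations. Of 798 alternative values of named members, 176 lost the call and none turned direction, and 16 of 42 named changes kept it throughout. Library totals in place of TMM moved the median of all unigenes by -0.54 in mature larvae over young larvae and 0.42 in imagoes over mature larvae (log2). The 35 members that were not tested had 0 to 76 reads each and did not pass the filter on low counts. That filter does not turn on the total alone, since a tested member (13_Contig_40855) had 64 reads.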
